A study of Mus musculus with 474 samples.

Results

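Levels of 10 genes of the neuromuscular junction and of the response of muscle to loss of its nerve were examined in skeletal muscle of Diversity Outbred mice. The 10 genes were taken by symbol from a table of 20612 genes, and all 10 passed the filter on low counts that left 18823 genes. They are Chrna1, Chrnb1, Chrnd and Chrne, which encode subunits of the muscle acetylcholine receptor, Agrn and Musk, which signal for receptor clustering, the adhesion molecule gene Ncam1, the transcription factor genes Myog and Runx1, and the stress-response gene Gadd45a.

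Diversity Outbred mice are an outbred stock bred from 8 inbred founder strains, so each animal carries its own mosaic of founder genomes. All animals received the same high-fat, high-sugar diet, which the labels call 45percent fat, from a young age until harvest as adults, and no control diet was included. RNA came from gastrocnemius muscle, a mostly fast-twitch muscle of the lower leg, and every animal gave 1 library. The libraries were grouped by labelled sex and by a number in their titles that was read as the generation. The study's methods name 18, 19 and 21 as generations and not 17 or 23, so the reading is an assumption. Generations 17, 18, 19, 21 and 23 held 48, 45, 49, 46 and 47 females and 46, 48, 50, 47 and 48 males. No nerve injury is among the treatments described.

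At the neuromuscular junction the motor nerve releases acetylcholine onto receptors that the muscle fibre packs into a small patch of membrane. Nerve-derived agrin binds Lrp4 on the fibre and activates the kinase MuSK, which acts with Dok7 and rapsyn to cluster the receptors. The adult receptor contains alpha, beta, delta and epsilon subunits, and the epsilon subunit replaces the fetal gamma subunit, encoded by Chrng, during development. When the nerve is lost, fibres make receptor subunits, MuSK and NCAM along their whole length under control of myogenin, and Runx1 and Gadd45a rise as well. In intact muscle, much of the receptor RNA comes from the few nuclei under the synapse, and RNA of a whole muscle does not show where along a fibre it was made.

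Upstream sequences are shown for 3 receptor subunits, which rose and fell together across animals as described below, and for Musk and Myog, which had the largest differences between the sexes. Each is the 250 bases before the annotated start from RefSeq (GRCm38.p6), written 5′ to 3′ on the strand of the gene. Capitals mark E-boxes (CANNTG, the motif bound by myogenic factors such as myogenin) and the N-box (CCGGAA, a motif known from synapse-specific expression).
Chrna1, chr2:73580339-73580588, minus strand: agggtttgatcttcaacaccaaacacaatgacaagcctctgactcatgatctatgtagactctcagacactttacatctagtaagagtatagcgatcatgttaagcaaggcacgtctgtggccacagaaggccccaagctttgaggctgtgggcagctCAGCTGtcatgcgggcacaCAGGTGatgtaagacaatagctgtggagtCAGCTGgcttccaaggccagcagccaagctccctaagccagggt
Chrnb1, chr11:69795938-69796187, minus strand: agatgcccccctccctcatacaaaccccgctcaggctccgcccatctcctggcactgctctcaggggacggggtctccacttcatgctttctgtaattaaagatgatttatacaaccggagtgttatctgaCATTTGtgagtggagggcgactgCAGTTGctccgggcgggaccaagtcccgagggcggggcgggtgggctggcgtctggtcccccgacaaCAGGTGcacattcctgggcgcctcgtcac
Chrne, chr11:70619195-70619444, minus strand: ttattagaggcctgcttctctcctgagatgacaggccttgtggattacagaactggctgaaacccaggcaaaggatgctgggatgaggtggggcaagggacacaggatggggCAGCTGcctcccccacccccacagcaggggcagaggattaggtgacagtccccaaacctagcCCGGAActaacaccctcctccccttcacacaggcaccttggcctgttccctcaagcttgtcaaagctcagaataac
Musk, chr4:58285712-58285961, plus strand: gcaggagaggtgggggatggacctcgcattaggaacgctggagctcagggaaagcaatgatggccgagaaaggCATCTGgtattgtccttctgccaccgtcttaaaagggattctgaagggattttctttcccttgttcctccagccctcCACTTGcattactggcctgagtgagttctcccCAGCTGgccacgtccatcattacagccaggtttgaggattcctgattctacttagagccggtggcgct
Myog, chr1:134289754-134290003, plus strand: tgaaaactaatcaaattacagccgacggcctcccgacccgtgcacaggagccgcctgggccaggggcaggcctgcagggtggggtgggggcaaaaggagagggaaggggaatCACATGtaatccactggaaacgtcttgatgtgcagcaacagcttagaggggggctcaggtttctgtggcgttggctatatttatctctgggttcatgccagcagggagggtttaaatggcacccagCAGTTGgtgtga
These are reference sequences, and the animals carried different founder alleles at these places. Among 32851 mouse windows of the same length, 66.2% held an E-box on either strand, 13.0% held the form CAGCTG, which is also counted among the E-boxes, and 12.0% held the N-box. The Chrna1 window held 3 E-boxes, 2 of them CAGCTG, which began 92 and 44 bases before the start. The Chrnb1 window held 3 E-boxes, with no CAGCTG and no N-box. The Chrne window held 1 CAGCTG and 1 N-box. The Musk window held 3 E-boxes with 1 CAGCTG, and the Myog window held 2 E-boxes, neither of them CAGCTG. Windows were found for 8 of the 10 genes, and Chrnd and Ncam1 had none.

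Library totals ranged from 35.9 M to 165.7 M read counts (M, mega) with a median of 79.3 M. In the library with the fewest counts of each gene, Chrnd still had 77 and Chrnb1 had 1403. Levels are given as counts-per-million values (CPM) scaled by the trimmed mean of M-values (TMM). Sex-linked RNA went against the labelled sex in 5 libraries, 3 of them labelled female (DO048, DO153 and DO347) and 2 labelled male (DO193 and DO308). They were kept under their labels, and values without them are given where they mattered. Fast-fibre markers were abundant in every library, with a summed level of 6 genes between 63922 and 136250 CPM, as the muscle label requires. Whole-tissue RNA cannot tell a change in the number of cells of a type from a change in RNA per cell.

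The acetylcholine receptor subunits were expressed at unequal levels. Compared per length, as CPM per kb of merged exons, the median level was 15.1 for Chrnb1, 6.06 for Chrne, 3.43 for Chrna1 and 0.898 for Chrnd. With the length of the principal coding transcript in place of merged exons, a choice made after the values were seen, the levels were 17.8, 6.44, 3.43 and 1.01 in the same order. Chrng, the fetal subunit, had a median of 0.0184 CPM per kb and no count in 59 libraries. The embryonic and perinatal myosin genes Myh3 and Myh8 had median levels of 7.36 and 6.63 CPM before division by length.

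Chrnb1 (chr11:69784036-69795943) ranged from 19.8 CPM in DO520 to 70.1 CPM in DO109 with a median of 38.3 CPM. Chrna1 (chr2:73563215-73580338) ranged from 7.01 CPM in DO247 to 29.7 CPM in DO195 around a median of 15.0 CPM. These genes were among the steadier of the 10, with the highest animal 3.53 and 4.24 times the lowest. Chrnd (chr1:87190607-87200070) ran from 1.38 CPM in DO172 to 6.001 CPM in DO350 with a median of 2.95 CPM. Chrne (chr11:70614883-70619216) ran from 4.14 CPM in DO150 to 29.6 CPM in DO179 with a median of 10.2 CPM. Chrne shares its introns, on the opposite strand, with 4930544D05Rik. Whether strand was used in counting was not stated, so reads from introns may not be fully separated.

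**Figure D1:**
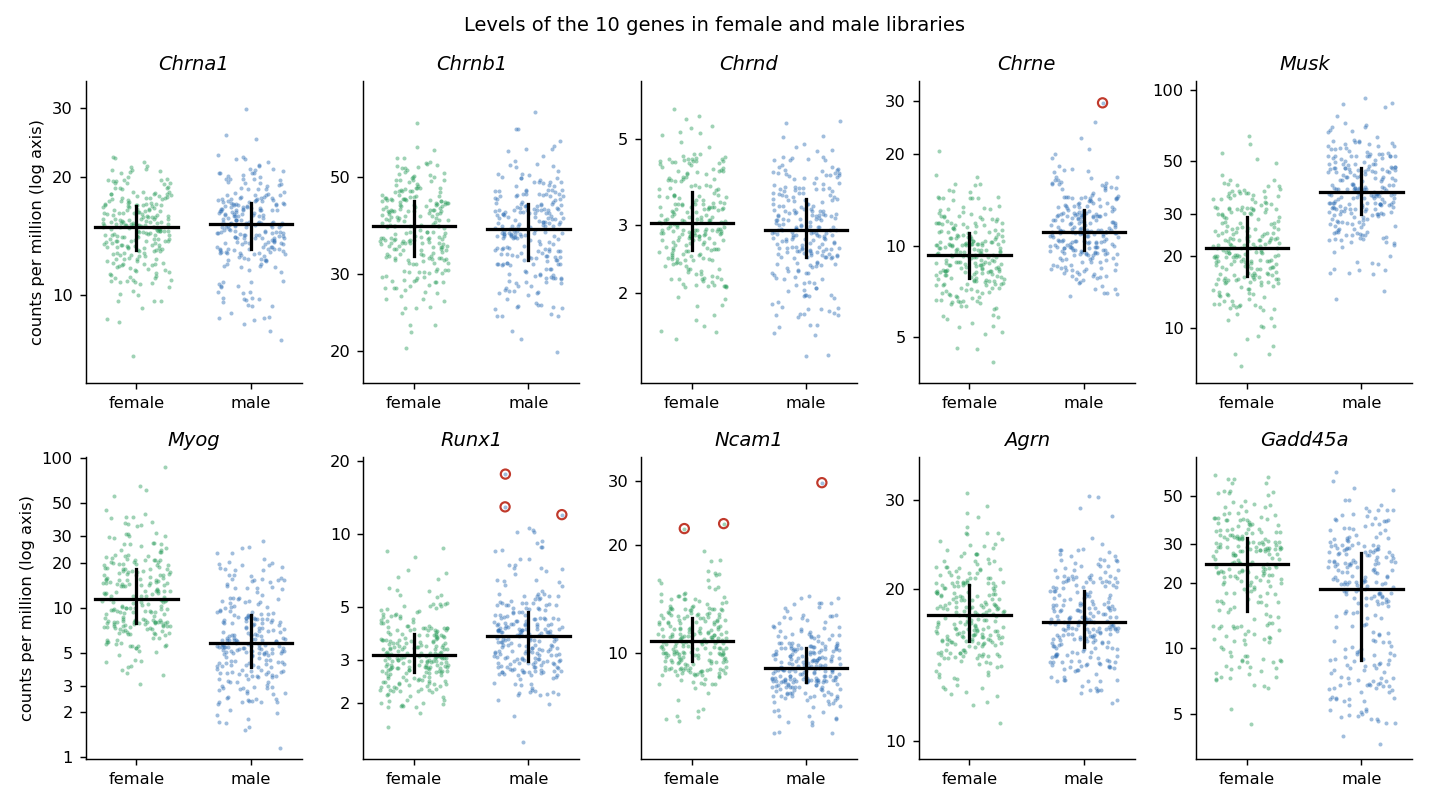
Levels of the 10 genes in CPM (log axis) for female and male libraries. Points are animals, horizontal bars are medians, vertical bars span the quartiles, and red rings mark the 7 libraries more than 4 scaled median absolute deviations from the centre. Musk lies higher and Myog lower in males, while Chrna1, Chrnb1 and Agrn overlap almost fully.

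Musk and Myog differed most between the sexes, in opposite directions. The edgeR quasi-likelihood test with generation as covariate called 7 of the 10 genes at an adjusted p under 0.05, beside 55.0% of all 18823 genes tested. Chrne, Musk and Runx1 were higher in males, beside 24.4% of all genes called higher in males. Chrnd, Myog, Ncam1 and Gadd45a were lower in males, beside 30.6% of all genes. With so many genes called across the table, the count alone sets the 10 genes little apart. Labels do not say that the animals were independent in litter or cage, so p-values rest on the spread between animals as they are.

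Musk, the kinase that agrin activates (chr4:58285960-58374303), had a median of 21.6 CPM in females (range 6.87 to 64.1) and 37.2 CPM in males (13.2 to 92.3). Levels were above the female median in 94.6% of males, and the ranges overlapped. The fitted difference was 0.77 ± 0.05 (log2 male minus female ± SE), a 1.71-fold higher level in males (adjusted p = 7.07e-43). It was larger in size than the sex difference of 96.9% of all genes tested. Within each generation the difference lay between 0.67 and 0.99 on the log2 scale, and within each library block between 0.69 and 0.87, and all 10 of these fits called it. The lowest library was DO462 (female, generation 23) and the highest was DO549 (male, generation 23).

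Myog, which encodes myogenin (chr1:134289989-134292548), went the other way. Its median was 11.5 CPM in females (range 3.09 to 86.8) and 5.77 CPM in males (1.14 to 27.95). In 91.1% of females the level was above the male median, 21 females were above every male, and 34 males were below every female. The fitted difference was -0.997 ± 0.084 on the log2 scale, a 2.00-fold higher level in females (adjusted p = 2.08e-27), and it was called in each of the 5 generations and 5 blocks. Myog was also among the most variable genes of the muscle. Its highest level, in DO252 (female, generation 19), was 75.8 times its lowest, in DO384 (male, generation 21). After sex and generation were removed, the spread of its VST score, a deposited value close to log2, was larger than that of 97.8% of genes.

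Of the 4 adult receptor subunit genes, Chrne had the largest difference between the sexes. Its median was 9.29 CPM in females (range 4.14 to 20.6) and 11.1 CPM in males (6.798 to 29.6), and 82.0% of males lay above the female median. The difference was 0.29 ± 0.03 on the log2 scale (adjusted p = 3.67e-15), and it stayed between 0.20 and 0.40 within generations, each of which called it. It was called in 4 of 5 blocks, and in block 5 it was 0.18 (adjusted p = 0.0855). The fetal subunit gene Chrng was also higher in males, by 0.39 ± 0.13 on the log2 scale (adjusted p = 0.00688), from medians of 0.0715 and 0.0925 CPM. At such levels, a few counts a library, its fitted difference rests on little data. For Chrna1 the difference was 0.03 with a 95% interval from -0.03 to 0.08, and for Chrnb1 it was -0.02 with an interval from -0.07 to 0.04. These intervals exclude a difference of the size seen for Chrne. Chrnd was 0.08 lower in males on the log2 scale (SE 0.035, adjusted p = 0.0484), and without the 5 libraries whose sex-linked RNA went against the label the adjusted p was 0.0736. With library block as a covariate it was 0.0705, and without the 7 extreme libraries it was 0.0535.

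Runx1, a transcription factor gene that responds to denervation (chr16:92601466-92826149), had a median of 3.15 CPM in females (range 1.58 to 8.76) and 3.79 CPM in males (1.38 to 17.7). The difference was 0.31 ± 0.05 on the log2 scale (adjusted p = 9.77e-10), and 11 males were above every female. Its sign was the same within all 5 generations and all 5 blocks, of which 3 each called it, and the lowest value was 0.18, in block 5. Ncam1, whose product NCAM spreads along denervated fibres (chr9:49502136-49798925), was lower in males, with medians of 10.8 CPM in females (6.50 to 22.9) and 9.10 CPM in males (5.995 to 29.7). The difference was -0.24 ± 0.03 on the log2 scale (adjusted p = 5.85e-17). It was called in all 5 blocks and in 4 of 5 generations, and in generation 18 it was -0.13 (adjusted p = 0.181). Both genes overlap an antisense gene that the table does not list, and those reads cannot be told apart if strand was not used.

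Gadd45a (chr6:67035096-67037457), a growth-arrest gene that rises in denervated muscle, had a median of 24.4 CPM in females (range 4.51 to 62.5) and 18.7 CPM in males (3.66 to 64.1). The difference was -0.34 ± 0.08 on the log2 scale (adjusted p = 6.29e-05). It was called in 1 of 5 blocks, where it lay between -0.48 and -0.13, and in 2 of 5 generations, and was 0.0018 in generation 19, and the test of sex by generation did not call it (adjusted p = 0.989). It overlaps an exon of E230016M11Rik, and their reads may not be fully separated. Agrn, the gene of agrin (chr4:156165290-156197488), had medians of 17.8 CPM in females (10.9 to 30.9) and 17.2 CPM in males (11.9 to 30.5). Its difference was -0.04 with a 95% interval from -0.08 to 0.01, and on total counts without TMM it was -0.07 (adjusted p = 0.0198).

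**Figure D2:**
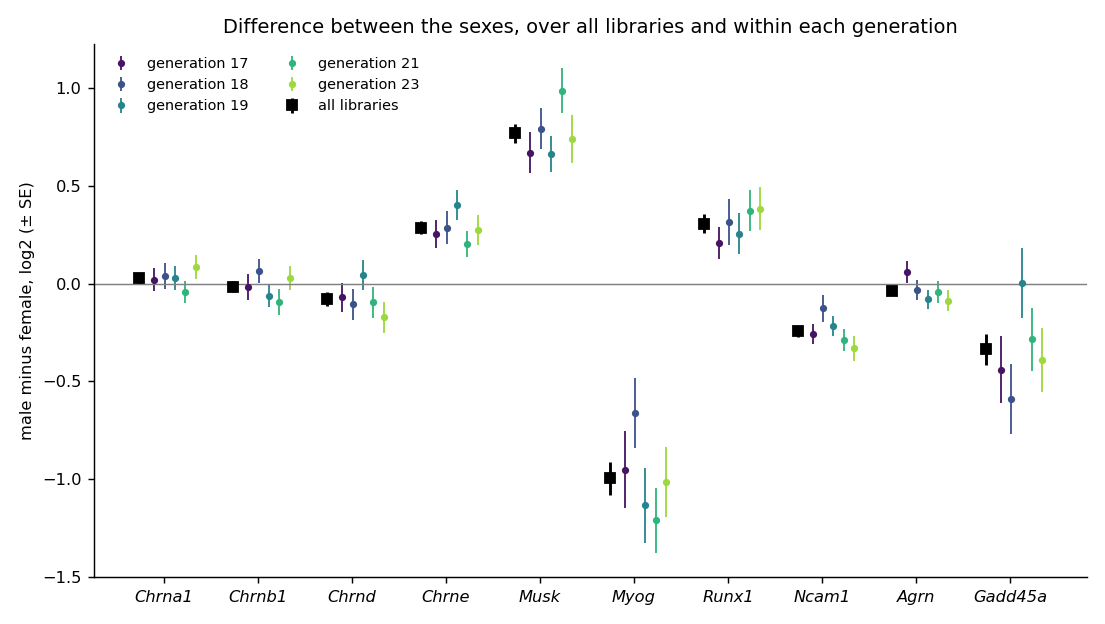
Difference between the sexes (log2, male minus female) for each gene over all libraries (black squares) and within each generation (coloured circles), with bars of 1 standard error. Musk lies above 0 and Myog below 0 in all 5 generations, and the values of Gadd45a run from -0.59 to 0.0018.

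Other genes of the junction were tested in the same fit. Of 19 tested genes of the endplate pathway, 13 were higher in males and 2 were lower, beside 24.4% higher and 30.6% lower over all genes, with a median difference of 0.10 on the log2 scale against -0.01 over all genes. Dok7, the adaptor that activates MuSK, was higher in males by 0.33 ± 0.03. Lrp4, the agrin receptor, was higher by 0.17 ± 0.03, Colq, which anchors acetylcholinesterase, by 0.18 ± 0.03, and Ache, the esterase itself, by 0.16 ± 0.03. Lamb2, a laminin chain of the synaptic cleft and other basement membranes, was lower in males, at -0.39 ± 0.02. Rapsn, whose product rapsyn anchors the receptor, was also lower, at -0.08 ± 0.02.

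Of 20 other genes of the denervation response, 6 were higher and 9 lower in males, with a median of -0.09 on the log2 scale. The number higher, 6 of 20, was close to the 24.4% of all genes, and 30.6% of all genes were lower. The embryonic myosin gene Myh3 was lower in males, at -0.68 ± 0.07, as was the perinatal Myh8, at -0.37 ± 0.13. Sln, which encodes the calcium pump inhibitor sarcolipin, was -0.88 ± 0.11. Myod1, a myogenic factor like Myog, was 0.28 ± 0.06 higher in males, the opposite direction to Myog. Dach2, a repressor of Myog that declines after denervation, was 0.24 ± 0.08 higher in males. Gdf5, a growth factor gene induced by denervation, was 0.64 ± 0.14 higher but had no count in 45 libraries. Hdac4, a deacetylase that represses Dach2, was at -0.05 ± 0.03 and was not called (adjusted p = 0.0959).

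Markers of other cells differed between the sexes as well, in a table where 55.0% of all genes were called. All 8 slow-fibre markers were lower in males, with median summed levels of 3680 CPM in females (619.2 to 9946) and 2532 CPM in males (884 to 8212). All 6 lymphoid markers were lower in males, with summed levels of 5.88 CPM (2.65 to 440.9) and 5.45 CPM (1.93 to 152.1). Their median fitted difference was -1.09 on the log2 scale although the median levels lay close together, and the median of Cd79a was higher in males (0.0622 against 0.0601 CPM). The highest sums, 440.9 CPM in females and 152.1 CPM in males, were far above both medians. Of 6 adipocyte markers 5 were lower and 1 higher, with summed levels of 242.1 CPM (89.3 to 1257) and 215.0 CPM (101.1 to 704.5). Of 10 Schwann cell markers 4 were lower, with summed levels of 97.0 CPM (40.5 to 225.9) and 88.3 CPM (44.4 to 199.3). Of the other lists, 5 of 6 fast-fibre markers were called (4 higher, 1 lower), 5 of 7 satellite cell markers (2 higher, 3 lower), 3 of 4 immature-fibre markers (1 higher, 2 lower), 6 of 6 fibroblast markers (2 higher, 4 lower), 6 of 6 endothelial markers (5 higher, 1 lower) and 1 of 7 macrophage markers (lower), and their part in the differences was not tested. No marker of these lists was at 0 in most libraries. With the mean levels of the slow-fibre, lymphoid, adipocyte and Schwann cell lists as covariates, a fit added after the values were seen, the difference was 0.69 for Musk, -0.95 for Myog, 0.24 for Chrne, 0.39 for Runx1, -0.16 for Ncam1 and -0.43 for Gadd45a, all called. In the same fit Chrnd was no longer called (adjusted p = 0.376) and Chrna1 was, at 0.10 higher in males (adjusted p = 0.00719).

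None of the 10 was called between the 5 generations by edgeR, where 7.56% of all genes were called. At an unadjusted p under 0.05 there were 3 (Runx1, Chrnb1 and Agrn), beside 19.8% of all genes, and limma on the VST and DESeq2 each gave 0 at the adjusted and 3 at the unadjusted threshold. The largest fitted range between generations was 0.27 on the log2 scale for Runx1 (adjusted p = 0.0813), whose male medians lay between 3.501 CPM in generation 19 and 4.24 CPM in generation 23. Scaled by total count alone, Runx1 was called (adjusted p = 0.0408). The smallest range was 0.07 for Ncam1. Of the other pathway genes, 3 of 19 in the endplate list (Lrp4, Crk and Sntb2) and 5 of 20 in the denervation list (Sik1, Trim63, Ankrd1, Hdac4 and Fbxo32) were called between generations. Their ranges ran from 0.11 for Crk to 0.87 for Sik1, a salt-inducible kinase gene (adjusted p = 3.19e-16), with 0.18 for Lrp4 (adjusted p = 0.00381) and 0.31 for Hdac4 (adjusted p = 8.36e-14). Those outside the named-gene rule were picked after their values were seen. The sex difference of none of the 10 was called as changing with generation, beside 0.531% of all genes. None had an unadjusted p under 0.05 with edgeR or limma, where edgeR gave 5.97% of all genes.

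The labels number the libraries, and stretches of up to 96 numbers were read as 5 blocks whose meaning the labels do not state. Chrne, Musk and Agrn were called between blocks, beside 47.4% of all genes. The ranges of fitted block levels were 0.17, 0.22 and 0.12 on the log2 scale (adjusted p = 0.0254, 0.0292 and 0.0172). With limma on the VST, only Agrn of the 10 was called.

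Group medians of the 10 genes repeated the order of the sexes. For Chrne, Musk and Runx1 the lowest of the 5 male group medians was above the highest of the 5 female ones, and for Myog, Ncam1 and Gadd45a the female medians were all above. How many of all genes show such an order was not counted, and 55.0% of all genes were called between the sexes. Musk medians ran from 19.9 to 23.5 CPM in female groups and from 35.5 to 42.2 CPM in male groups. Myog medians ran from 9.68 to 12.9 CPM in female groups and from 5.46 to 6.67 CPM in male groups. For Chrna1, Chrnb1, Chrnd and Agrn the medians of both sexes overlapped. The lowest libraries were DO184 for Runx1 (male, generation 18), DO546 for Ncam1 (male, generation 23) and DO350 for Agrn (female, generation 21), which also had the highest Chrnd. The highest Agrn was in DO487 (female, generation 23). Single animals overlapped everywhere: among the 45 pairs of groups, none of the 10 genes had a pair without overlap. The share of all genes with such a pair was not counted.

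Across animals of like sex and generation, the receptor subunits rose and fell together, but only weakly. Pearson r was computed on residuals of the deposited VST score after sex and generation, for 45 pairs over all libraries, with permutation tests and p-values adjusted over the pairs. Of the 45 pairs 22 passed, 19 of them positive and 3 negative. The smallest passing absolute r was 0.10, and 28.6% of all gene pairs in the table reached it. The median r of the 45 pairs was 0.07, against -0.0009 over all gene pairs.

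The strongest of the 45 pairs were among the subunits. Chrna1 and Chrnb1 had r = 0.26 (Spearman's rho = 0.28, adjusted permutation p = 0.00015), and r stayed between 0.16 and 0.39 within blocks and was 0.28 without the 2 animals farthest from the median of Chrna1. Chrna1 and Chrne had r = 0.26 (rho = 0.26, adjusted permutation p = 0.00015, 0.15 to 0.33 within blocks). Chrnb1 and Chrne, both on chromosome 11 and less than 1 Mb apart, had r = 0.22 (rho = 0.23, 0.07 to 0.38 within blocks). Chrna1 and Chrnd had r = 0.20 (0.099 to 0.31 within blocks), Chrnd and Chrne 0.18 (-0.0035 to 0.34 within blocks), and Chrnb1 and Chrnd 0.11. The last was at the threshold (adjusted permutation p = 0.0477), its rho of 0.09 did not pass, and within blocks its r ran from -0.07 to 0.27.

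Correlations of the subunits with the other genes ran from -0.12 to 0.17. Ncam1 had r = 0.16 with Chrna1, 0.16 with Chrnb1 and 0.17 with Chrnd, and 0.06 with Chrne, which did not pass (adjusted permutation p = 0.313). Myog, which is known to drive the receptor genes after denervation, had r = 0.12 with Chrna1 (adjusted permutation p = 0.0255) and between 0.03 and 0.07 with the other subunits. Musk and Myog, the genes with the largest sex differences, had r = 0.06 with each other (adjusted permutation p = 0.304). The negative pairs were Musk with Agrn (r = -0.12), Runx1 with Agrn (r = -0.14) and Chrne with Runx1 (r = -0.12). For Chrne and Runx1, rho was -0.09 and did not pass, and r was -0.28 in females and -0.0018 in males. A permutation of sex labels gave an adjusted p of 0.0563 for that difference over the 45 pairs. Without the 7 extreme libraries 17 pairs passed, as did 17 without the 2 libraries farthest from the median of the first gene, and within single blocks of 91 to 96 libraries 8, 1, 0, 0 and 1 passed.

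**Figure D3:**
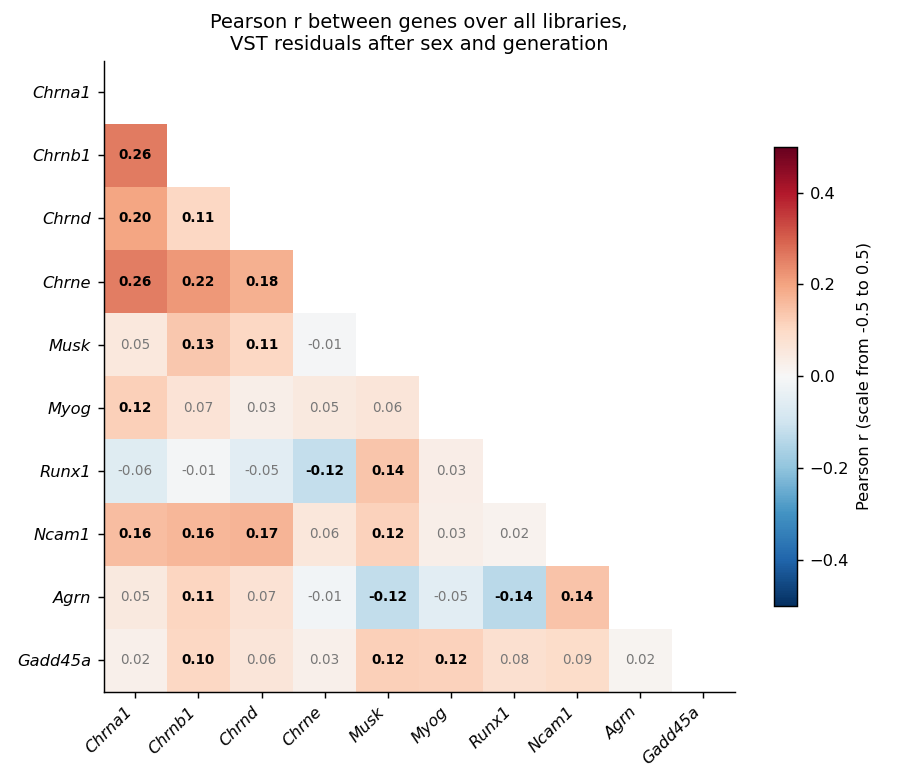
Pearson r between the 10 genes over all libraries, from VST residuals after sex and generation, with the colour scale limited to ±0.5. Bold values passed an adjusted permutation p of 0.05. The 6 pairs of receptor subunits hold values from 0.11 to 0.26, and no pair reached 0.3.

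For each of the 10, some other genes of the table had a higher r than the nearest of the other 9. The rest of the table holds far more genes than 9, so this says little about how closely the 10 followed each other. The nearest of the other 9 to Chrna1 was Chrnb1, at rank 35 of 18822 genes ordered by r, and Chrna1 was at rank 131 for Chrnb1. Chrna1 was also the nearest to Chrnd, at rank 125, and to Chrne, at rank 197. For Musk the nearest was Runx1, at rank 1266, and for Myog it was Chrna1, at rank 1042. These correlations are given as descriptions.

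Chrne had r = 0.64 with 4930544D05Rik, the gene in its introns, 0.50 with Pld2, which starts 0.07 Mb away and encodes a phospholipase, and 0.45 with Ggt6 at 1.82 Mb. Chrnb1 had r = 0.53 with its neighbour Fgf11, which starts 0.01 Mb away, 0.41 with Dlgap4 and 0.39 with the clathrin light chain gene Cltb. Chrnd had r = 0.52 with Gm6136 at 0.28 Mb, 0.34 with Fxyd6 and 0.32 with 5033417F24Rik at 5.72 Mb. Several of the closest partners of the subunit genes therefore lay beside them on the chromosome. Chrna1 had r = 0.32 with Psmc3 and Tecr and 0.31 with Eif3h, while its most negative value, -0.45, was with Ola1 at 0.47 Mb, named after its value was seen.

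Musk, Myog, Runx1 and Ncam1 had partners spread over the genome. Myog had r = 0.53 with Slc25a25, a mitochondrial carrier gene, 0.51 with Sik1 and 0.49 with Tob2. Musk had r = 0.45 with Aff1 and Filip1 and 0.42 with Slc15a4. Runx1 had r = 0.51 with Resf1 and Sh3bp2 and 0.49 with Cmtm6. Ncam1 had r = 0.40 with Hspb7, P3h2 and the embryonic myosin gene Myh3, and without the 7 extreme libraries r with Myh3 was 0.34.

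Agrn and Gadd45a had some of their closest partners nearby on the chromosome, as Chrne did. Agrn had r = 0.39 with C1qtnf12 at 0.20 Mb, 0.35 with Mib2 at 0.51 Mb and 0.35 with Cdh23 on another chromosome. All 3 closest partners of Gadd45a were on chromosome 6, namely Gm45053 (r = 0.39, 5.57 Mb away), Abcg2 (r = 0.28, 8.45 Mb) and Rmnd5a (r = 0.27, 4.35 Mb), and its most negative value was -0.45 with Capg at 5.51 Mb, likewise named after its value was seen. Among the 20 genes with the largest absolute r, those within 10 Mb numbered 13 for Gadd45a, 11 for Chrne, 9 for Agrn, 7 for Chrnd and 5 for Chrna1. The count was 1 for Chrnb1, Musk, Myog and Runx1 and 0 for Ncam1. Genes within 10 Mb made up between 0.457% and 1.91% of the genes tested. How often genes at large have such nearby partners was not counted, so the counts do not set the 10 apart.

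**Figure D4:**
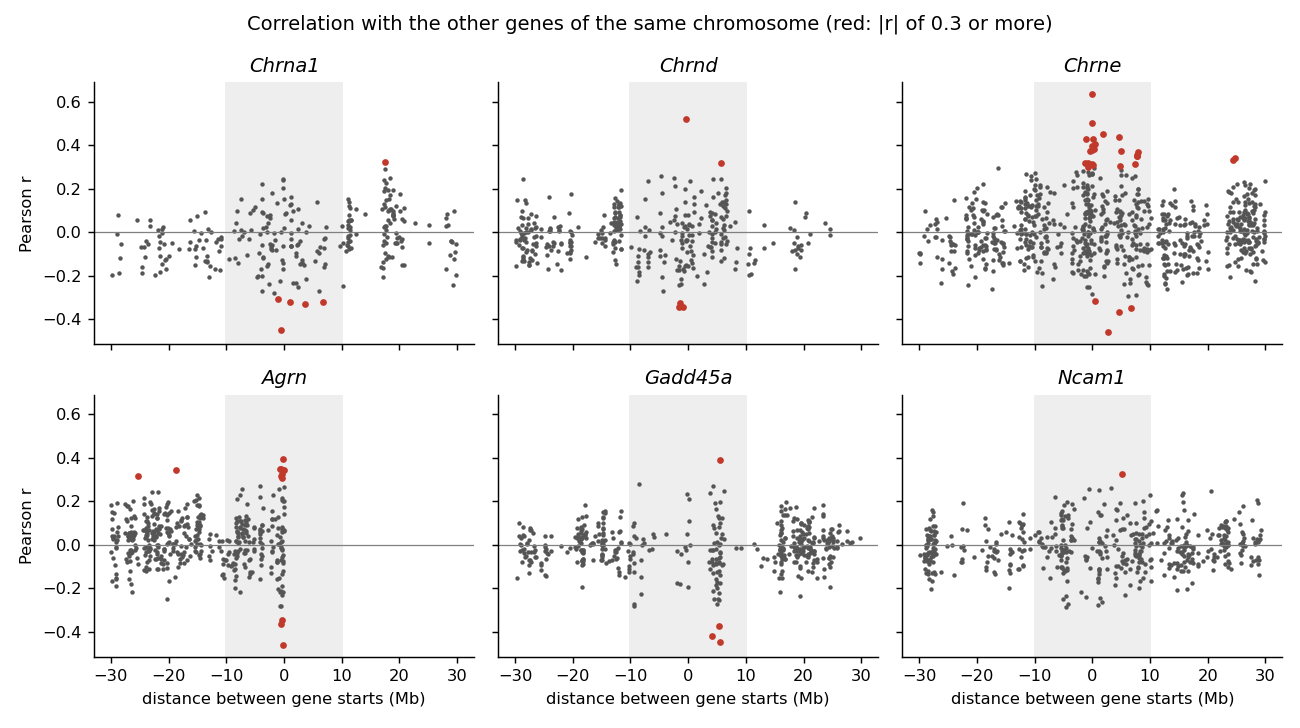
Pearson r of Chrna1, Chrnd, Chrne, Agrn, Gadd45a and Ncam1 with other genes of their chromosome, against the distance between gene starts (grey band: within 10 Mb, red: absolute r of 0.3 or more). Genes of the chromosome farther away than the axis runs are not shown. Most of the red points shown lie inside the band, and Ncam1 has 1.

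With the sexes pooled, Gadd45a levels had 2 humps by eye, and the number of humps was not tested. In bins of 0.25 of the VST score, 37 libraries fell between 9.5 and 9.75, 22 in the bin from 10.25, and 66 between 11.25 and 11.5. The humps were not separated, with libraries in every bin between them. For the residuals of the score after sex and generation, the largest step from an animal to the next was 0.05. That was between the 5th and 95th percentile, over a width of 2.50. The fullest bin of the low hump, from 9.5, held 18 females and 19 males. That of the high hump, from 11.25, held 42 females and 24 males. The bins beside these held 5 females and 24 males (from 9.25) and 30 females and 33 males (from 11). The highest animal (DO275, male, 64.1 CPM) was 17.5 times the lowest (DO296, male, 3.66 CPM). The spread of Gadd45a after sex and generation was larger than that of 98.3% of genes, the largest of the 10, while Agrn was at 63.8%.

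**Figure D5:**
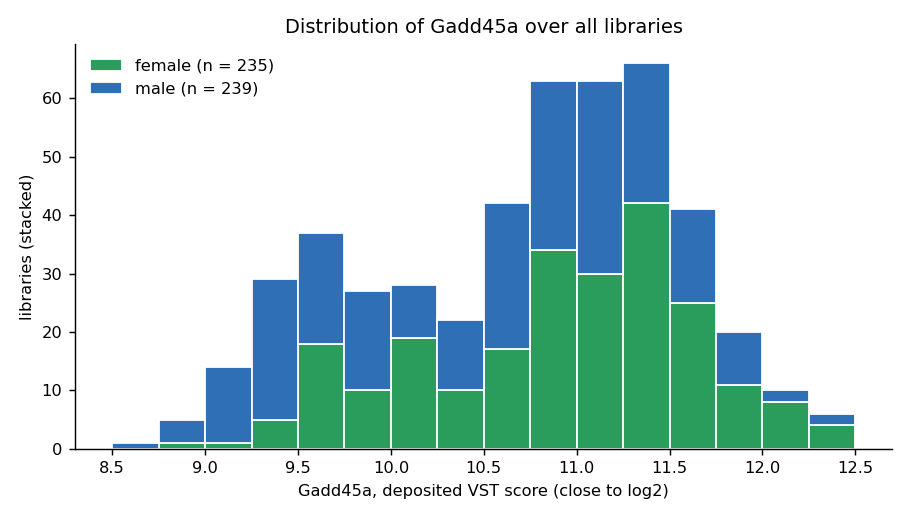
Number of libraries (stacked by sex) in bins of 0.25 of the deposited VST score of Gadd45a. With the sexes pooled, a low hump lies between 9.25 and 9.75 and a high hump between 10.75 and 11.5. The bin from 10.25 between them holds 22 libraries.

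Scores of cell-type markers followed the 10 genes to a like degree. Each score was the mean standardised VST residual of a marker list, 10 lists were used, and 39 of 100 correlations passed (20 positive, 19 negative). The smallest passing absolute r was 0.11, reached by 28.5% of all pairs of a gene and a list. Ncam1 had its highest r with slow-fibre markers, 0.31 (rho = 0.23, adjusted permutation p = 7.14e-05, 0.13 to 0.42 within blocks), and 0.26 with immature-fibre markers. Its lowest r was with lymphoid markers, -0.28 (rho = -0.13, adjusted permutation p = 0.0186 for rho). Chrnb1 and Chrne had r = 0.30 and 0.28 with fast-fibre markers and 0.27 each with immature-fibre markers, among which is Chrng. With macrophage markers they had r = -0.23 and -0.21. Chrna1 had r = 0.24 with slow-fibre and 0.19 with fast-fibre markers.

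Runx1 had r = -0.22 with fast-fibre markers, 0.18 with macrophage and 0.25 with lymphoid markers. In females these were -0.36, 0.31 and 0.44, and in males -0.10, 0.07 and 0.04, a difference between the sexes that was not tested. Agrn, which endothelial and nerve-associated cells also express, had r = 0.30 with endothelial markers (0.17 to 0.37 within blocks) and 0.15 with Schwann cell markers. The Schwann cell value ran from 0.03 to 0.27 within blocks. It was 0.29 in females and 0.0073 in males, a difference that was not tested. Chrnd was the other gene of the 10 that passed with Schwann cell markers, at r = 0.12. Adipocyte markers passed with 5 of the 10 genes, at -0.17 for Gadd45a, -0.14 for Chrnb1, -0.13 for Chrnd, -0.12 for Myog and -0.12 for Chrne. By rho, Gadd45a and Myog passed, and Chrnb1, Chrnd and Chrne did not (adjusted permutation p = 0.0778, 0.0512 and 0.132). The part of cell makeup in the correlations between genes was not tested.

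Extreme animals were rare and differed from gene to gene. A library counted as extreme when its VST residual lay more than 4 scaled median absolute deviations from the median of that gene. There were 7 such libraries, all high and each in 1 gene: 3 in Ncam1, 3 in Runx1 and 1 in Chrne. No animal was extreme in 2 or more of the 10 genes. Animals and genes below, other than the highest and lowest of each gene, were picked after their values were seen. Only high ranks were picked, most other genes of these animals are not given, and the picks do not describe a state of the animals.

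The highest Ncam1 levels were 29.7 CPM in DO189 (male, generation 18), 22.9 CPM in DO156 (female, generation 18) and 22.1 CPM in DO244 (female, generation 19), beside group medians of 9.42, 10.3 and 10.8 CPM. DO189 and DO244 had the highest 2 slow-fibre scores of all animals. DO189 also had the highest Myh3, 48.1 CPM beside a group median of 6.28 CPM. DO244 had the highest Myh7, 4434 CPM beside 1328 CPM, the highest Myh8, 67.3 CPM beside 7.92 CPM, and the second highest Chrnd. DO156 had the highest Col1a1 of all animals, 799.5 CPM beside 214.3 CPM.

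The highest Runx1 levels were 17.7 CPM in DO513 (male, generation 23), 12.9 CPM in DO314 (male, generation 19) and 12.0 CPM in DO380 (male, generation 21), beside group medians of 4.24, 3.501 and 3.82 CPM. DO513 had the highest Lrp4 of all animals, 46.9 CPM beside 18.6 CPM. DO380 had the second highest Musk, 88.4 CPM beside 42.2 CPM. It also had the third highest Chrng, 0.581 CPM beside 0.0804 CPM, a gene that rests on few counts. DO314 had the third highest Dach2, 13.5 CPM beside 2.94 CPM. DO179 (male, generation 18) had the highest Chrne, 29.6 CPM beside a group median of 10.7 CPM. The highest Myog levels, 86.8 CPM in DO252 and 65.5 CPM in DO259, lay within the wide spread of that gene and passed no limit.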

How the data were processed

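RNA-seq was analysed for 474 mouse skeletal muscle libraries (235 female, 239 male), 1 an animal. The authors joined both mates of each fragment, mapped every mate on its own to transcripts of the founder strains, and deposited expected counts per gene from EMASE run by GBRS, so a fragment can count up to 2. The authors also deposited a VST score from DESeq2. Aligner version and use of strand were not given in the sources used here. Positions are GRCm38 per the labels. Generation is an assumed reading of a number in the titles, of which the study names 18, 19 and 21, and wave, a covariate of the study, was not fitted.

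Expected counts were rounded and tested with edgeR 4.0.16 (filterByExpr with a minimum count of 10, TMM, quasi-likelihood F-test) in R 4.3.3, with sex and generation as terms and Benjamini-Hochberg adjustment over all 18823 genes at 0.05. The interaction and library block were added as terms for their own tests. Correlations used 100000 permutations of animals (smallest p 1e-05), and the difference of r between the sexes 20000. All tests were 2-sided. Alternatives used limma 3.58.1, DESeq2 1.42.0, other scalings, no filter, and left-out libraries. The edgeR fit was tested on simulated data. Python 3.11.15 drew the figures.

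The 10 genes, the lists and the marker genes were chosen with earlier results of these data known. Named genes were the 10, the 3 most correlated genes of each, 11 set pathway genes and the 3 largest called sex differences of each pathway list. Nrg1 was not in the table. Motifs were searched on both strands. No column was left unmatched to a sample.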

Additional observations from a re-analysis of the deposited data

How the results depend on the processing

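The difference between the sexes kept its direction and its call for Musk, Myog, Chrne, Runx1, Ncam1 and Gadd45a in all 11 alternatives fitted over all generations. Of the 10 genes, 7 were called in the fit of the report, 3 within library block 5 and 4 within generation 19, where fewer animals were compared, and 6 to 8 in the 11 alternatives over all generations. The count between generations was 0, and 1 when scaled by total count alone. Between library blocks 3 were called, and 1 by limma on the VST. Of the pairwise correlations 22 passed over all libraries, and 8, 1, 0, 0 and 1 within blocks 1 to 5. Of the correlations with marker lists 39 passed, and 5, 5, 11, 4 and 13 within the blocks. Directions reversed for 5 genes. Chrna1 was -0.0031 by total count, -0.0016 in block 2, -0.044 in block 4 and -0.043 in generation 21. Chrnb1 was 0.037 in block 3, 0.063 in generation 18 and 0.030 in generation 23. Chrnd was 0.017 in block 4 and 0.045 in generation 19. Agrn was 0.060 in generation 17, and Gadd45a 0.0018 in generation 19. None of these reversed values was called. Scaling by total count moved the median difference of all genes from -0.01 to -0.05 on the log2 scale. The scores planned as covariates had sex removed, so that fit does not take out sex differences of the markers. No paired analysis was possible because the replicate names are animal numbers that no groups share. The lowest count of any of the 10 in a library was 77, for Chrnd, and the part of counting error in the spread was not tested. Chrng and Gdf5 had libraries with no count.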
